A study of Mus musculus with 4 samples.

Results

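Interleukin-12 (IL-12), IL-23, IL-27 and IL-35 are cytokines built from paired subunits, and the genes described here encode the subunits of these cytokines and the receptor chains of IL-12 and IL-23. The 8 genes were Il23r, Il12rb1, Il12rb2, Il23a, Il12a, Il12b, Ebi3 and Il27, taken by symbol from the 50600 genes of the count tables. Each symbol matched a single gene identifier. They were chosen by family membership with the TPM levels of these same libraries already known, so the levels below are a description and carry no test. The cells were primary T-helper 17 (Th17) cells of Mus musculus strain C57BL/6NJ, with wild-type or altered genotype not stated, sex not collected and age unknown in the labels. The labels link a CD4 T-cell differentiation protocol, and the names written in the file headers carry a tag of 16 hr that the labels do not explain. RNA was sequenced in 4 libraries, called replicates 1 to 4 as in the labels, all in 1 group with no second condition.

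The heterodimers share parts. IL-12 is the p35 subunit (Il12a) with p40 (Il12b), IL-23 is p19 (Il23a) with the same p40, IL-27 is p28 (Il27) with Ebi3, and IL-35 is p35 with Ebi3. IL-12 and IL-23 both bind the receptor chain encoded by Il12rb1, which pairs with Il12rb2 for IL-12 and with Il23r for IL-23. IL-12 signals mainly through Tyk2, Jak2 and STAT4 and drives Th1 cells, whereas IL-23 signals through the same kinases and STAT3 and sustains Th17 cells. IL-12, IL-23 and IL-27 come mostly from dendritic cells and macrophages, and T cells carry their receptors.

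Libraries held 24696730 to 37025016 fragments. Levels are in TPM, which divides the fragments of a gene by its exon bases and gives every library an equal sum, and are given as mean ± SD with n = 4. The cells carried the markers of their label. All 8 CD4 T-cell markers were above 10 TPM in every library, led by Cd5 at 1843 ± 46.5, Trac at 1289 ± 61.9 and Lck at 735 ± 21.5 TPM, with Cd3g the lowest at 48.0 TPM. All 8 Th17 genes were above 1 TPM, with Il17f at 694 ± 73.6 and Il21 at 331 ± 4.47 TPM the highest. Il23r was the lowest of these 8. The libraries differed in sex-linked genes: Xist was at 186 and 161 TPM in replicates 1 and 2 and at 0.687 and 0.721 TPM in replicates 3 and 4. Ddx3y, on the Y chromosome, went the other way, with 0.442 and 0.446 TPM in the first pair and 88.6 and 83.2 TPM in the other. Replicates 1 and 2 thus carried the pattern of female cells and replicates 3 and 4 that of male cells, so at least 2 animals contributed. Of the 4 members above 1 TPM, Il12rb2 was higher in both of the first libraries than in both of the others, and Il12rb1, Il23r and Ebi3 did not divide this way. The labels nevertheless give all libraries the same donor identifier. Whether the libraries of the same sex came from separate animals is unsaid, so the spread between them may be partly technical.

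The receptor chains fell at very different levels. Il12rb1, the chain shared by both receptors, was abundant, and the second chain of each receptor was low. Il12rb1 (ENSMUSG00000000791.9, mm10 chromosome 8, 70808449 to 70821424, plus strand) was at 170.2, 174, 168 and 179.7 TPM in replicates 1 to 4. Its 5231 to 8048 fragments per library made it the most precisely measured member, with replicate 4 the highest and replicate 3 the lowest. Its mean of 173 ± 5.10 TPM exceeded that of 95.0% of protein-coding genes.

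Il23r (ENSMUSG00000049093.9, chromosome 6, 67422932 to 67491855, minus strand), the chain that gives IL-23 its specificity, was at 2.14, 2.08, 1.99 and 2.36 TPM in replicates 1 to 4. These values rested on 58, 38, 48 and 64 fragments. The 4 libraries lay close together, and each value fell inside the exact 95% Poisson intervals of the others, from 1.63 to 2.77 TPM in replicate 1 and from 1.82 to 3.01 TPM in replicate 4. Intervals and floors here cover counting error only.

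Il12rb2 (ENSMUSG00000018341.12, chromosome 6, 67291318 to 67376188, minus strand), the chain of the IL-12 receptor that marks Th1 cells, was at 2.61, 3.06, 2.43 and 2.27 TPM from 108, 85, 89 and 94 fragments. Replicate 2 was the highest and replicate 4 the lowest, and replicates 1 and 2, the libraries with the female pattern, were above replicates 3 and 4. The part of that division in the Il12rb2 level was not tested, and the Poisson intervals of all 4 libraries overlapped. Il12rb2 exceeded Il23r in replicates 1 to 3, by 1.22, 1.47 and 1.22 times, but not in replicate 4, where the ratio was 0.963. The mean log2 ratio of Il12rb2 to Il23r was 0.27 ± 0.25, and the ranges of the genes overlapped, so their order was not resolved.

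The gap to the shared chain was far larger than this spread. The TPM of Il12rb1 was 80.8 times that of Il23r (76.2 to 84.2 times over the libraries), a log2 ratio of 6.34 ± 0.07. Against Il12rb2 it was 67.1 times higher (56.9 to 79.1 times), a log2 ratio of 6.07 ± 0.20. Both ratios had the same direction in 4 of 4 libraries. In bulk RNA, a low level in every cell and a high level in a few cells cannot be told apart.

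**Figure D1:**
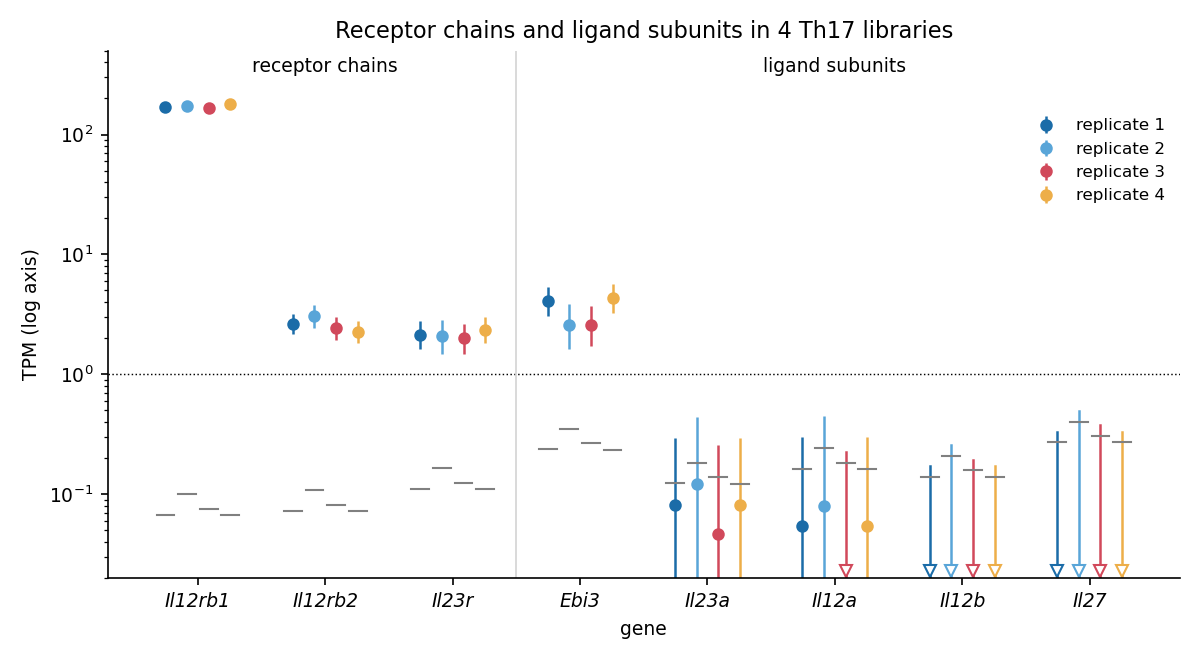
TPM (log axis) of each gene in each library (points), with exact 95% Poisson intervals of the fragment count (bars) and the level that 3 fragments would give in that library (grey ticks). Open triangles mark libraries with no fragment and the dotted line marks 1 TPM. Il12rb1 lies near 173 TPM, Ebi3, Il12rb2 and Il23r between 1.99 and 4.31 TPM, and the other 4 genes under the grey ticks.

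The chains are class I cytokine receptors, a family known by a WSXWS motif. The coding stretches that carry it are shown because they set the receptor chains apart from the ligand subunits and show a feature of Il23r. They come from the GENCODE M21 transcripts (mm10). The search, in frame and on the coding strand, was for a relaxed WSXWS motif of 15 bases, in capitals below: a TGG codon, a pair of codons of any bases, another TGG codon and a serine codon.
Il12rb1 (chr8:70813727-70813771, plus strand): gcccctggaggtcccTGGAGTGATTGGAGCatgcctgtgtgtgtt
Il12rb2 (chr6:67351255-67351299, minus strand): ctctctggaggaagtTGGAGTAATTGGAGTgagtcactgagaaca
Il23r (chr6:67452313-67452417, minus strand): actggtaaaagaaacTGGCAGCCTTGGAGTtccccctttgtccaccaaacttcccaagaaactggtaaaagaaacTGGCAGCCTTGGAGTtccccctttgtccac
Il27ra (chr8:84039494-84039538, minus strand): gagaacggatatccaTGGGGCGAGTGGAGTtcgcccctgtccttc
Il6st (chr13:112490582-112490626, plus strand): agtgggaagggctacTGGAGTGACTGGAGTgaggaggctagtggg

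The match was present in all 3 receptor chains among the members and in both chains of the IL-27 receptor, and in none of the 5 ligand subunits, Ebi3 and Il12b included. Of 21511 protein-coding genes searched the same way, 216 held a match. Il23r alone of these 5 receptor genes held 2 matches, 60 bases apart. They lie in a direct repeat inside exon 7 of 11, in which 62 bases are identical to the bases 60 positions further on (chromosome 6, 67452302 to 67452423).

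Il12rb2 and Il23r are neighbours, transcribed in the same direction with 46743 bases between them. The next protein-coding gene beyond Il12rb2 that does not overlap it, Gadd45a, was at 0.894 ± 0.149 TPM. Both receptor genes stood above it but far under Il12rb1, whose own neighbours Mast3 and Arrdc2 were at 64.4 ± 2.24 and 11.3 ± 0.338 TPM. The 250 bases upstream of both starts are shown because these neighbouring genes lay at similar low levels. They are from RefSeq (GRCm38.p6), on the minus strand, read 5′ to 3′, with motif matches in capitals.
Il23r (chr6:67491856-67492105): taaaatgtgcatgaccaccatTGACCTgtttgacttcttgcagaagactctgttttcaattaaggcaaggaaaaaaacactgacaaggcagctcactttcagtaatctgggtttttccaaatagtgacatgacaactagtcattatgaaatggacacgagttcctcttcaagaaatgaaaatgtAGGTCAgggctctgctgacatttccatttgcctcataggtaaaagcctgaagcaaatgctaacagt
Il12rb2 (chr6:67376189-67376438): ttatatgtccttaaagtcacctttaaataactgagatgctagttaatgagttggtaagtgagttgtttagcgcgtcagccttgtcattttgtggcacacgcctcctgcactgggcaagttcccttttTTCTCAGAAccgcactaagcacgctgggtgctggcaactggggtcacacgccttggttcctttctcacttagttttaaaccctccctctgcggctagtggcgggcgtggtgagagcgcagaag

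Both strands were searched for AGGTCA, a core element of nuclear receptors, TTCNNNGAA, the STAT element, and TGANTCA, the AP-1 element. The Il23r window held AGGTCA on both strands, 66 to 61 bases before the start and, reversed, 229 to 224 bases before it. The Il12rb2 window held a STAT match 123 to 115 bases before the start. No matches overlapped. Of 32851 windows of 250 bases, 14% held AGGTCA, 7.02% TTCNNNGAA and 6.75% TGANTCA. Such matches are letters in a window and not shown to be bound. RefSeq windows were found for 5 of the 8 genes, and those of Ebi3, Il12a and Il12b held none of the 3 motifs.

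Among ligand subunits, Ebi3 was detected and the other 4 were at or under the floor of 3 fragments. Ebi3 (ENSMUSG00000003206.6, chromosome 17, 55952623 to 55957021, plus strand), the soluble receptor-like subunit of IL-27 and IL-35, was at 4.08, 2.57, 2.56 and 4.31 TPM from 52, 22, 29 and 55 fragments. Replicates 1 and 4 were high and replicates 2 and 3 low, with a mean of 3.38 ± 0.946 TPM. Its level exceeded that of Il23r in 4 of 4 libraries, by 1.23 to 1.91 times, while its range overlapped that of Il12rb2. In replicates 2 and 3 the Poisson intervals of Ebi3 and Il23r overlapped. Ebi3 had fewer fragments than Il23r in every library, so this order rests on division by exon bases, 1170 for Ebi3 and 2488 for Il23r. The neighbours of Ebi3, Zfp119b and Yju2, were at 5.79 ± 0.190 and 54.8 ± 2.78 TPM.

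Its partners were not detected above the floor. Il27 (ENSMUSG00000044701.5, chromosome 7, 126589010 to 126594941) had no fragment in the 4 libraries, where 3 fragments would be 0.401 TPM and the upper 95% Poisson bound 0.493 TPM in the shallowest of them. Il12a (ENSMUSG00000027776.12, chromosome 3, 68690644 to 68698547), the p35 subunit of IL-12 and IL-35, had 1, 1, 0 and 1 fragments in replicates 1 to 4. Its mean of 0.0470 TPM was under the floor of 0.241 TPM in the shallowest library.

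The subunits of IL-23 were likewise near 0. Il23a (ENSMUSG00000025383.2, chromosome 10, 128296139 to 128298752), the p19 subunit, had 2, 2, 1 and 2 fragments, a mean of 0.0827 TPM under a floor of 0.182 TPM. Il12b (ENSMUSG00000004296.14, chromosome 11, 44400063 to 44414033), the shared p40 subunit, had none, where 3 fragments would be 0.208 TPM and the upper 95% Poisson bound 0.256 TPM in the shallowest library. At this depth neither subunit of IL-12 or IL-23 was detectable above 3 fragments in any library.

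Counted together, 4 of the 8 members (Il12rb1, Ebi3, Il12rb2 and Il23r) reached at least 1 TPM in every library, against 44.8% of protein-coding genes. In descending order, the range of Il12rb1 lay clear of all others, those of Ebi3 and Il12rb2 overlapped, as did those of Il12rb2 and Il23r, and Il23r lay clear of Il23a.

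Markers of the cells that usually make IL-12, IL-23 and IL-27 were low. Of 20 dendritic-cell, monocyte and macrophage markers, 1 reached 1 TPM in every library, and 5 had no fragment, Clec9a, Cd209a, Siglech, Lyz2 and Fcgr1. The highest were Cd74 at 8.19 ± 1.57, H2-Eb1 at 1.06 ± 0.393 and H2-Ab1 at 0.542 ± 0.164 TPM. The summed level of the list was 10.4, 10.5, 8.18 and 12.7 TPM in replicates 1 to 4. Of 10 B-cell markers, none reached 1 TPM in every library, Ms4a1 and Pax5 had no fragment, and the sum was 1.63, 1.98, 1.45 and 2.57 TPM. The highest of those were Ighd at 0.605, Igkc at 0.569 and Cd79a at 0.343 TPM. Both sums were highest in replicate 4, where Ebi3 was highest, and were lower in replicate 1, where Ebi3 was also high, than in replicate 2, where it was low. Their part in the Ebi3 level was not tested. Of 8 matched CD8, natural killer and gamma delta T-cell markers, 2 reached 1 TPM, Cd8b1 at 7.32 ± 1.16 and Trdc at 5.17 ± 0.584 TPM, and Ncr1 and Klrb1c had no fragment. Natural killer cells also carry Il12rb2. Of 8 regulatory T-cell genes, 7 were at 1 TPM or more, led by Ctla4 at 2061 ± 85.2, Il2ra at 1189 ± 11.5 and Tnfrsf18 at 133 ± 7.89 TPM, with Lrrc32 the lowest at 0.858 TPM. The 3 leading genes are also expressed by activated T cells in general. Of the genes closer to the regulatory lineage, named after their values were seen, Foxp3, its defining factor, was at 9.92 ± 1.47, Ikzf2 at 2.29 ± 0.301 and Nrp1 at 1.92 ± 0.151 TPM.

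Overlapping genes touch 3 of the members. Of the 3794 exon bases of Il12rb2, 1519 (40.0%) lie opposite exons of Serbp1, which encodes an mRNA-binding protein and had 40821 to 61943 fragments per library. Serbp1 was at 267, 277, 286 and 282 TPM in replicates 1 to 4, in which Il12rb2 had 0.184%, 0.208%, 0.160% and 0.152% of its fragments. The counting used strand, so the genes are separated as far as the library kept strand. The part of Serbp1 in the Il12rb2 count was not tested.

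Ebi3 shares 270 of its 1170 exon bases with Gm16712, an antisense gene on the opposite strand. Gm16712 had 13, 3, 5 and 13 fragments in replicates 1 to 4, high in the same replicates as Ebi3. Il27 shares 103 of 1021 exon bases with Apobr on the opposite strand, which was at 4.29 ± 0.283 TPM, and Il27 still had no fragment. No word of 50 bases of Il23r, Il23a, Il12a or Il12b occurred in annotated transcripts of other genes.

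The IL-27 receptor contrasted with those of IL-12 and IL-23 in that both of its chains were abundant. Il6st, which encodes gp130, the signalling chain shared with IL-6, was at 225, 214, 219 and 213 TPM. Il27ra, the IL-27-specific chain, was at 169.8, 165, 156 and 153 TPM. The ratio of Il6st to Il27ra was 1.35 (1.33, 1.296, 1.41 and 1.38 in replicates 1 to 4), beside the 80.8 and 67.1 times between the chains of the IL-23 and IL-12 receptors. The ranges of Il12rb1 and Il27ra overlapped, with Il12rb1 1.00 to 1.17 times as high within a library. Clcf1, a gene of the IL-6 cytokine family, was at 10.1 ± 0.451 TPM.

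**Figure D2:**
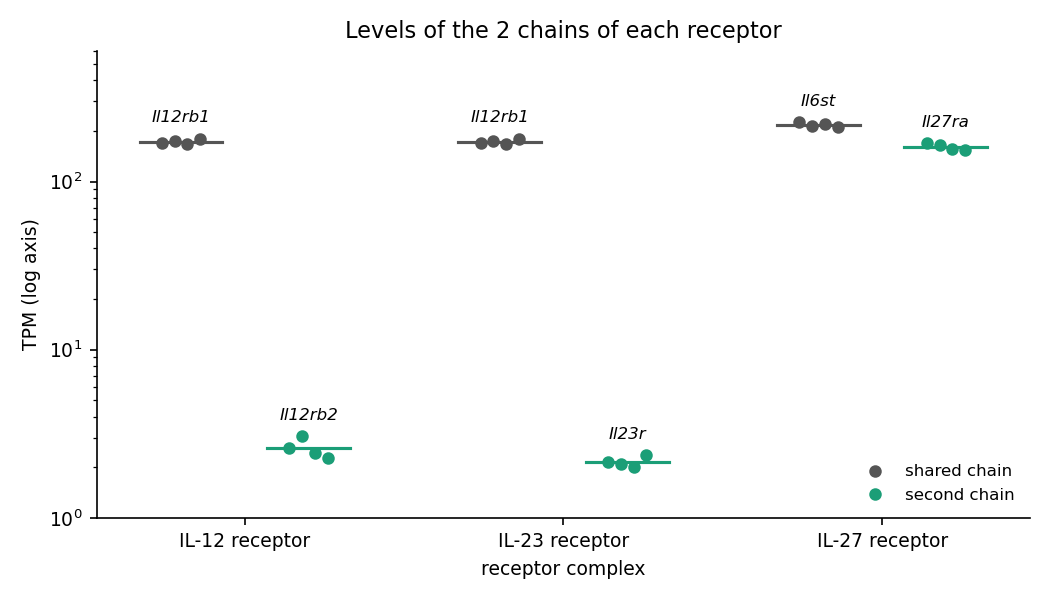
TPM (log axis) of the shared chain (grey) and the second chain (green) of the IL-12, IL-23 and IL-27 receptors, with a point per library and a line at the mean. The second chain lies 67.1 and 80.8 times under Il12rb1 for IL-12 and IL-23, whereas Il27ra lies close under Il6st.

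Placed among 42 cytokine receptor chains, Il12rb1 ranked 5, behind Il2ra at 1189 ± 11.5, Il2rb at 826 ± 44.7, Il2rg at 290.2 ± 5.04 and Il6st at 218 ± 5.67 TPM. The chains nearest to it in mean log2(TPM + 1) were Il4ra, at 166 ± 8.25 TPM, and Il27ra, both with overlapping ranges. Il12rb2 ranked 19 and Il23r 22. Nearest to Il12rb2 were Il3ra at 2.59 ± 0.516 and Il15ra at 2.66 ± 0.491 TPM, and nearest to Il23r were Il20rb at 2.42 ± 0.329 TPM and Il3ra. Their ranges also overlapped with those of the members. Likeness was measured on the mean of 4 libraries of 1 condition. Of the 42 chains, 23 reached 1 TPM in every library and 11 had no fragment.

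**Figure D3:**
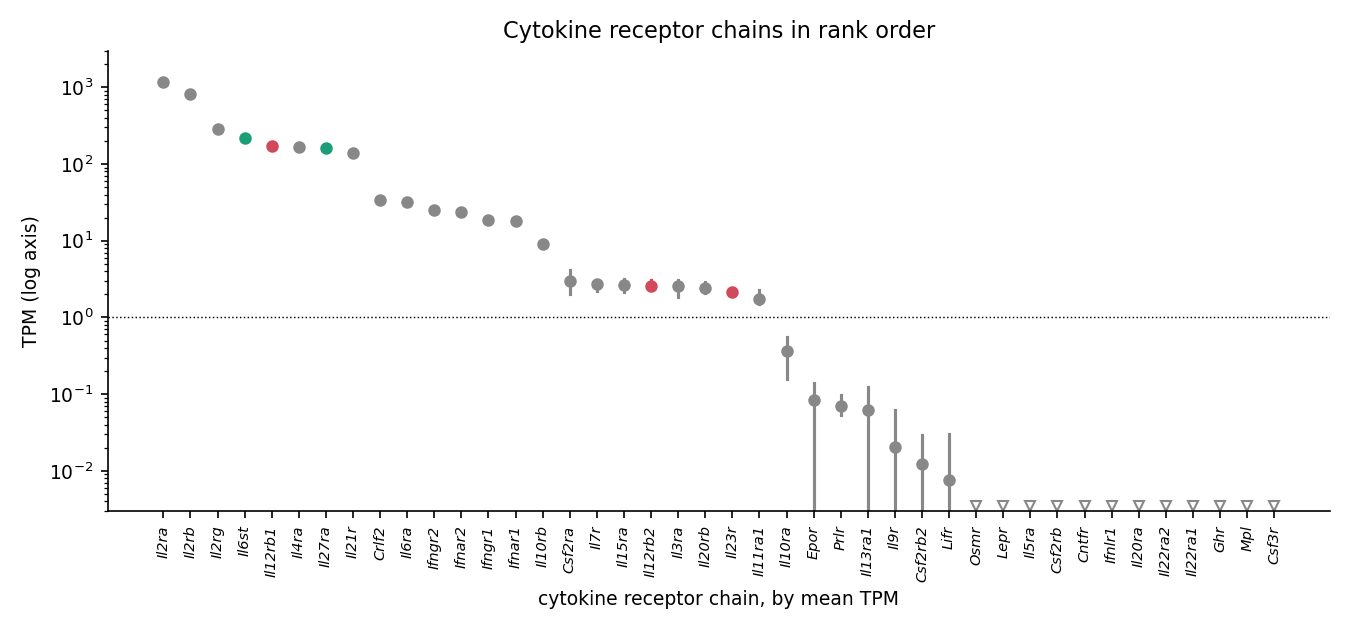
Mean TPM (points, log axis) and range over the 4 libraries (bars) of 42 cytokine receptor chains in rank order, with IL-12 and IL-23 receptor chains in red and IL-27 receptor chains in green. Open triangles mark chains with a mean at or near 0. Il12rb1 stands among the most abundant chains and Il12rb2 and Il23r at the lower end of those above 1 TPM (dotted line).

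Of the signalling genes downstream, the kinases were unequal. Jak2, which binds Il12rb2 and Il23r, was at 249 ± 8.37 TPM and Tyk2, which binds Il12rb1, at 25.8 ± 1.46 TPM, so Jak2 was 9.66 times as high (9.11 to 10.6 times). Jak1, used by gp130 receptors, was at 151 ± 5.72 TPM. Among the transcription factors, Stat3, the main effector of IL-23, was at 231, 229, 227 and 216 TPM in replicates 1 to 4. Stat4, the main effector of IL-12, was at 4.03, 3.42, 4.62 and 5.04 TPM. The ratio of Stat3 to Stat4 was 53.3 (42.9 to 66.98 over the libraries). The STAT5 genes Stat5a and Stat5b, effectors of IL-2, were at 257 ± 5.64 and 196 ± 6.10 TPM.

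The feedback inhibitors Socs1, Cish and Socs3 were at 193 ± 11.4, 169 ± 4.61 and 47.1 ± 0.983 TPM. Socs3 blocks STAT3 signalling from gp130 and the IL-23 receptor. All 11 kinase, STAT and inhibitor genes reached 1 TPM in every library, and 7 reached 100 TPM. Their median was 169 TPM, beside 26.0 TPM over the 11170 genes at 1 TPM or more in every library.

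Genes known to act on Il23r expression were mostly abundant while Il23r itself was low. Of 15, 14 reached 1 TPM in every library, and 10 reached 100 TPM, with a median of 179 TPM. Irf4 and Batf, partner factors in T cells, had 1647 ± 43.8 and 594 ± 7.16 TPM, and the oxygen-responsive factor Hif1a had 564 ± 22.7 TPM. Prdm1, which encodes Blimp-1, was the lowest at 0.214, 0.611, 0.5004 and 0.559 TPM. Receptor chains for cytokines that induce Il23r were all above 1 TPM in every library, 8 of 8, led by Il2rg, Il6st and Il21r, the last at 139 ± 4.31 TPM, with Il1rap the lowest at 6.18 ± 0.247 TPM.

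Genes tied to responses to these cytokines spanned a wide range. Of 12 genes tied to IL-23 responses of Th17 cells, 9 reached 1 TPM in every library, and 2 reached 100 TPM, with a median of 4.52 TPM. Il17f led them, followed by Bhlhe40, a transcription factor of cytokine-producing T cells, at 153 ± 13.2 TPM and Il1r1 at 45.03 ± 4.04 TPM, while Gzmb had 6 fragments in all. Of 12 genes tied to IL-12 and STAT4 responses of Th1 cells, 6 reached 1 TPM in every library, and 1 reached 100 TPM, with a median of 1.19 TPM. Furin, a protease gene that is also expressed widely, was at 511 ± 14.95, Irf1 at 22.6 ± 1.62 and Ifngr1 at 18.6 ± 1.23 TPM, and Twist1 had 1 fragment in all. Gzmb and Il18r1 are on both lists, and the level of a list depends on the genes it holds.

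**Figure D4:**
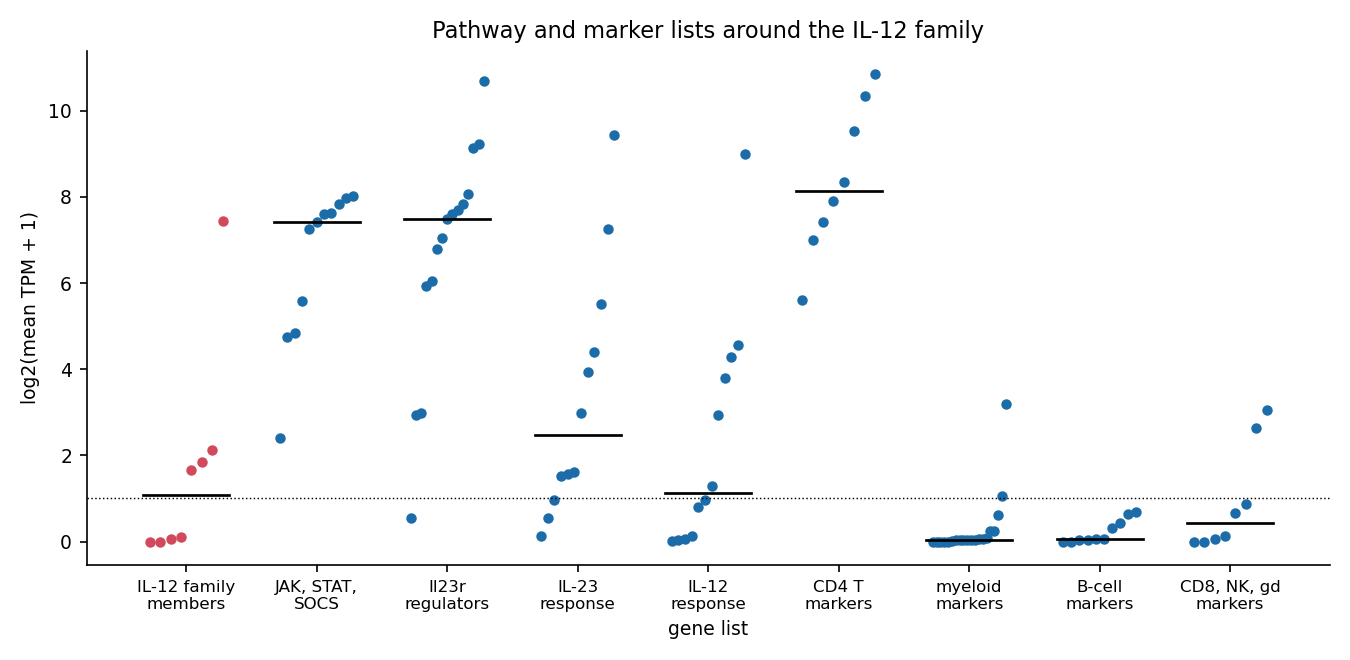
Mean level of each gene as log2(TPM + 1) (points) and the median of each list (lines) for the members (red) and the pathway and marker lists (blue). The dotted line marks 1 TPM, and gd stands for gamma delta. Kinase and STAT genes and Il23r regulators lie high, response genes are spread out, and 3 of the 38 myeloid, B-cell and CD8, NK and gd markers reach 1 TPM in every library.

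The spread between replicates differed among the members. The coefficient of variation (CV) of TPM was 2.95% for Il12rb1, 7.20% for Il23r, 13.1% for Il12rb2 and 28.0% for Ebi3. Counting error alone would give 1.22%, 14.1%, 10.4% and 17.1%. The Il23r libraries thus lay closer together than their counts alone would place them on average. The CVs of Il12rb1, Il12rb2 and Ebi3 were above these counting values. A CV from 4 libraries is imprecise, and whether the excess went beyond that imprecision was not tested. Among genes like Il12rb1 in mean count (n = 631), the median CV was 2.63%, and 58.8% had a lower CV than Il12rb1. The same values were 13.1% and 49.9% for Il12rb2 (n = 505). They were 17.2% and 5.51% for Il23r (n = 490), and 19.4% and 81.5% for Ebi3 (n = 550).

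Variability was tested across all genes with an edgeR quasi-likelihood fit. The fit had no term for the female and male patterns, so differences between those libraries counted as spread between replicates. Of the 8 members, 4 passed the filter on low counts, and 0 of these 4 varied between replicates more than genes of their abundance, against 0.304% of the 11847 genes tested (adjusted p under 0.05). None had an unadjusted p under 0.05 either, a limit that 5.69% of all tested genes met, and limma called 0 as well. The lowest unadjusted p was that of Ebi3, at 0.186, with an edgeR adjusted p of 0.993. The values of Ebi3 rested on 22 to 55 fragments per library, and a p above the threshold does not show that its libraries were alike.

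**Figure D5:**
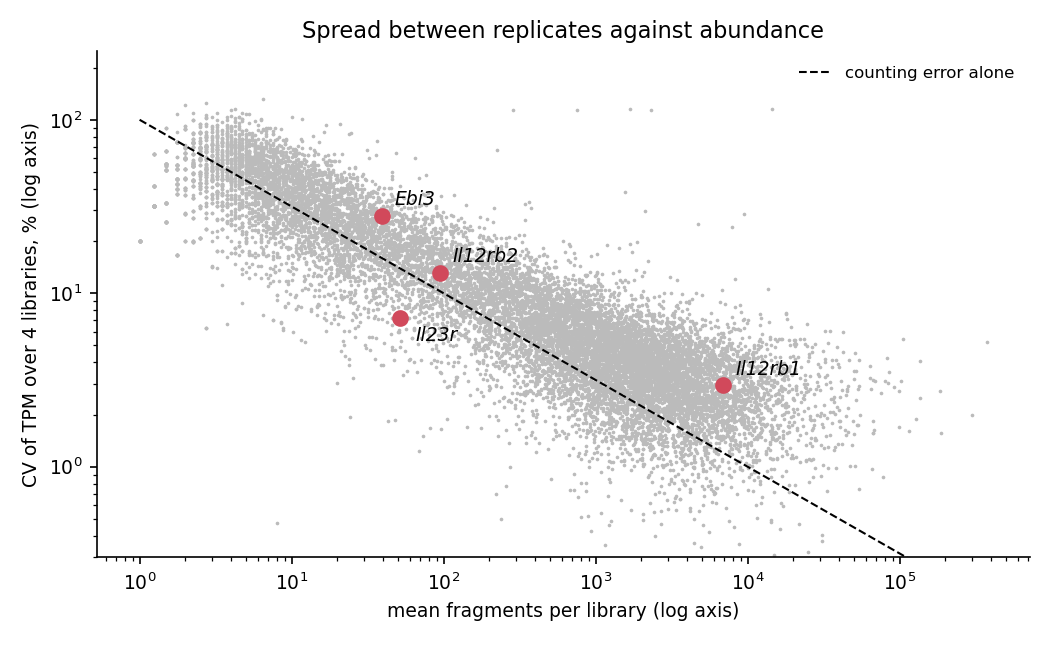
CV of TPM over the 4 libraries against mean fragments per library (both axes log) for every gene with a fragment in each library (grey), with members in red and the CV that counting error alone would give as a dashed line. Il23r lies under the dashed line, and Ebi3, Il12rb2 and Il12rb1 above it.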

How the data were processed

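Each library has a deposited table of raw counts (fragments per gene). Per the file headers, the authors counted paired-end alignments with featureCounts 1.4.6-p4 over GENCODE vM13 exons, with strand option 2, and mm10 is the build per the labels. Aligner versions are not given here. Of 50600 genes, 50376 matched a symbol in GENCODE M21 with the identifier version ignored.

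TPM was computed here as count over summed exon length. No pseudocount entered the ratios. Floors are 3 fragments, and intervals are exact Poisson at 95%. The variability test used edgeR 4.0.16 under R 4.3.3 (TMM, filterByExpr, intercept only, robust prior, residual quasi-dispersion over the trended prior in the F distribution, upper tail, Benjamini-Hochberg adjustment), after a test on simulated data. DESeq2 1.42.0 size factors and limma 3.58.1 were alternatives. Other steps ran in Python 3.11.15 (pandas 2.3.3, numpy 2.4.6, scipy 1.17.1; figures in matplotlib 3.10.9). Depth and precision are given with the results.

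The members and gene lists were chosen with earlier results of these data known. Genes were named by rule: all members, the other receptor chains, the kinase and STAT list, the 3 highest and the lowest of each other list, nearest chains and chromosome neighbours. Overlapping and sex-linked genes, 3 regulatory T-cell genes, and markers with no fragment, were named after their values were seen. Some genes that the rule names are not reported here. The listed marker Trgc1 found no match.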

Additional observations from a re-analysis of the deposited data

How the results depend on the processing

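The number of members at 1 TPM or more in every library was 4 without mitochondrial and ribosomal RNA genes, with the length of the longest coding transcript, with a threshold of 0.5 TPM and without any replicate (4 to 4), and 1 at a threshold of 10 TPM. The log2 ratio of Il12rb1 to Il23r was 6.85 with transcript length, 5.79 with a pseudocount of 1 and 7.06 from CPM with no length. That of Il12rb1 to Il12rb2 was 5.60 with a pseudocount of 1, and that of Il12rb2 to Il23r was 0.61 with transcript length and 0.88 from CPM. No ratio changed sign. Without a replicate the ratios spanned 6.32 to 6.36, 5.99 to 6.15 and 0.17 to 0.37. Mean TPM of Il23r was 1.55 and of Il12rb1 178 with transcript length, where Il12rb1 has 2873 bases in place of 4105 and Il23r 2488 under both. In all, 88 of the recomputed values moved by less than 1 SD (counts, by less than 1.5 times) and 11 by more. Many of the 88 were fixed in advance. With 4 libraries, leaving out a replicate cannot shift a mean level or mean log2 ratio by 1 SD. Il12b and Il27 had no fragment to recompute, and the counts of members called were entered among the 88 whatever their value. The 88 are therefore no measure of robustness. Genes called variable numbered 17 without robust estimation of the prior and 15 to 37 without a replicate, the 15 being without replicate 4, where the cause was not tested. The count was 39 with DESeq2 size factors, 40 with limma-trend and 50 with a filter of 1 fragment. No member was called under any of these settings (0 to 0). No paired analysis was possible because there was 1 group. Members under 3 fragments per library are limited by depth.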
